A study of Mus musculus with 50 samples.

Results

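The 12 mammary gland tumors with the highest level of Col1a1, the α1 chain of type I collagen, were compared with the 12 tumors with the lowest level, irrespective of treatment. They were chosen by their Col1a1 RPKM among 50 tumors, of which 49 were ranked: insulin_13 was left out before ranking, and the remaining 25 tumors lie between the groups. Since Col1a1 itself set the groups, its values are given as a description, with no test. A call on any other gene means that it differed between tumors that differ in Col1a1, whatever treatment they had received.

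All tumors came from female p53R270H/+WAPCre mice, 8 weeks old at the start, which carry 1 mutant p53 allele that Cre, driven by the promoter of a milk protein gene, switches on in mammary epithelium. The mice were injected subcutaneously every other day with vehicle, insulin, glargine, X10 or IGF1, and 10 tumors per treatment were sequenced. Tumors are named by their sample titles, in which those of vehicle-treated mice are called Untreated and 1 title, IFG1_132, was read as IGF1. Glargine and X10 are insulin analogues. Tumors were collected at a size of 1 cm3, with 24 h between the final dose and collection. The authors had selected tumors with an EMT-like appearance, so the groups below do not stand for all tumors of this model. Each sample was a piece of whole tumor, in which fewer cells of a type and less RNA per cell cannot be told apart.

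Type I collagen is the main fibrillar collagen of connective tissue and of tumor stroma, and is built from chains encoded by Col1a1 and Col1a2. Newly made procollagen is hydroxylated and folded in the endoplasmic reticulum, trimmed by N- and C-proteinases outside the cell, assembled with type III and type V collagen into fibrils and cross-linked by lysyl oxidases. Fibroblasts are the usual source of it in carcinomas, while cells that have undergone EMT may express it too.

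Expression is given as RPKM, reads normalized to gene length and library size. Libraries held between 26.6 and 51.9 M reads as recovered from the spacing of low RPKM values, with a median of 41.95 M reads in the Col1a1-high and of 40.85 M reads in the Col1a1-low tumors. Fold changes are differences of mean log2(RPKM + 0.5), which understate changes of low genes. A gene was called at an adjusted p under 0.05 (limma, Benjamini-Hochberg over 16732 genes with a mean of at least 0.5 RPKM over the 50 tumors).

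Col1a1 (ENSMUSG00000001506, GRCm38 chr11:94936224-94953042, plus strand) spanned a 17.8-fold range over the 49 tumors. The Col1a1-high tumors lay between 12421 and 23864 RPKM, with a mean of 17150 ± 3446 (SD, n = 12). The Col1a1-low tumors lay between 1341 and 5436 RPKM, with a mean of 3438 ± 1503 (SD, n = 12). In the high group this single gene took 1.83% to 3.50% of all RPKM in a library, against 0.20% to 0.77% in the low group. The borders do not fall at gaps in the ranking. The last tumor inside the high group, insulin_27, had 12421 RPKM and the first outside, insulin_8, had 11843. At the lower border IGF1_135 had 5436 RPKM and IGF1_158, just outside, had 5577.

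**Figure D1:**
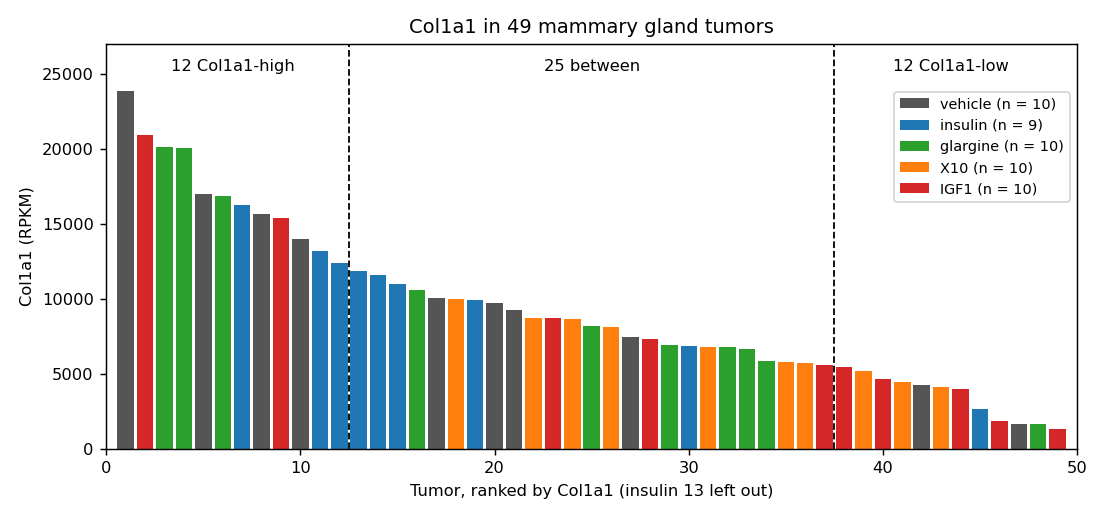
Col1a1 expression (RPKM, linear axis from 0) in the 49 ranked tumors, 1 bar per tumor, coloured by treatment. Dashed lines mark the 12 highest (12421 to 23864 RPKM) and the 12 lowest tumors (1341 to 5436 RPKM). The decline is continuous across both borders, and no X10 tumor is among the 12 highest.

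The high group held 4 vehicle, 3 glargine, 3 insulin, 2 IGF1 and 0 X10 tumors. The low group held 5 IGF1, 3 X10, 2 vehicle, 1 insulin and 1 glargine tumors. A difference between these distributions did not pass a permutation test (chi-square 6.95, p = 0.154, 100000 resamples). The outcome depends on where the borders are set: with 16 tumors per group p was 0.0143, and with 8 per group it was 0.736. Every treatment other than X10 had tumors in both groups. In IGF1-treated mice Col1a1 ran from 1341 to 20943 RPKM, and in vehicle-treated mice from 1672 to 23864. X10 tumors had a narrower range, from 4138 to 10021 RPKM.

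Over all genes, 313 of 16732 were called (1.87%), of which 269 were higher (1.61%) and 44 lower (0.263%) in the Col1a1-high tumors. The balance of directions depends on the fit. The share of called genes that were higher was 85.9%, and it was 66.1% with treatment as a covariate, 75.4% with insulin_13 kept in the ranking, 70.1% with all 49 tumors in the fit and 73.4% with Col1a1 as a continuous variable, against 91.1% when scaled without collagen genes and 94.2% with 8 tumors per group. The share with treatment as a covariate is out of 327 called genes. The number of lower genes was 138 with all 49 tumors in the fit, 27 when scaled without collagen genes and 10 with 8 tumors per group. Among the higher genes 177 had a log2 fold change of at least 1, while 2 of the lower genes, the nuclear receptor gene Nr1h5 (-1.57, adjusted p = 0.0415) and Kitl (-1.06, adjusted p = 0.0178), the ligand of the receptor Kit, had one of at most -1. Both are named because of their values, and Nr1h5 lost its call in 15 of 24 fits leaving out 1 tumor (adjusted p up to 0.0776). In 14 genes, 0.0837% of those tested, every Col1a1-high tumor lay above every Col1a1-low tumor. These were Col1a2, Col3a1, Adamts2, Sparc, P4ha3, Serpinh1, Lrrc15, Acta2, Mmp23, Gpx3, Runx1t1, Tmem45a, C2 and Clec11a. No gene was separated in the opposite direction.

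The chains of other collagens were higher with Col1a1 in a minority of cases. Of 39 tested chains 11 were called higher and none lower, where 1.61% of all genes were called higher, and their median difference was 0.52 on the log2 scale against -0.02 over all genes. Called were 5 of 10 fibrillar chains, 4 of 13 beaded and fibril-associated chains, 1 of 8 network chains and 1 of 8 transmembrane or multiplexin chains, and the classes were not tested against each other. Col6a6, Col19a1, Col4a3 and Col4a4 were too low to be tested. The type II collagen chain Col2a1, a cartilage collagen, was not called, with a log2 fold change of -1.25.

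Col1a2, the partner chain of Col1a1 in type I collagen (chr6:4504814-4541544, plus strand), had a median of 2870 RPKM in the Col1a1-high tumors, from 1478 to 4426. In the Col1a1-low tumors its median was 725.5 RPKM, from 237.1 to 1166. The groups did not overlap, and the log2 fold change was 2.13 ± 0.23 (SE, adjusted p = 3.61e-06). The ratio of Col1a1 to Col1a2 RPKM had a median of 5.53 in the high group, from 4.43 to 10.4, and of 5.43 in the low group, from 2.12 to 6.59. The lowest ratios of the 24 were those of IFG1_132 (2.12) and glargine_69 (2.29).

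Col3a1, the chain of type III collagen, had a median of 2502 RPKM in the high group, from 1393 to 4998. In the low group the median was 734.5 RPKM, from 256.4 to 1379. All Col1a1-high tumors were above all Col1a1-low tumors, by a narrow margin (log2 fold change 1.87 ± 0.25, SE, adjusted p = 9.60e-05). Its neighbour on chromosome 1, Col5a2, which encodes a type V chain that is built into type I fibrils, had a median of 503.0 RPKM in the high and 219.8 in the low group. Here the groups overlapped widely, since 1 Col1a1-low tumor reached 853.9 RPKM, and only 1 Col1a1-high tumor exceeded it (log2 fold change 1.31, adjusted p = 0.0121). The other type V chain called, Col5a1, differed more evenly, with 11 of 12 Col1a1-high tumors above every Col1a1-low tumor (1.59 ± 0.19, SE, adjusted p = 1.26e-05). Col27a1, a minor fibrillar chain, was called with a log2 fold change of 0.98, a call that was lost in 12 of 24 fits leaving out 1 tumor, at adjusted p from 0.0507 without glargine_64 to 0.0682 without insulin_37. Col5a3 and Col11a1 were not called, with log2 fold changes of 0.57 and 0.88.

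Among collagens that associate with fibrils, Col12a1 showed the largest difference. Its median was 476.4 RPKM in the Col1a1-high tumors (252.6 to 994.8) and 119.3 RPKM in the Col1a1-low tumors (27.36 to 298.8), and 11 of 12 high tumors exceeded every low tumor. The log2 fold change was 2.16 ± 0.32 (SE, adjusted p = 0.000244). Type VI collagen forms beaded filaments from chains that include Col6a1, Col6a2 and Col6a3. Of these Col6a3 (1.69, adjusted p = 0.0157) and Col6a2 (0.90, adjusted p = 0.00165) were called. Col6a1 (0.52, adjusted p = 0.115) was called only without Untreated_195 (adjusted p = 0.0406) or without Untreated_182 (adjusted p = 0.0237) among the fits run. Col16a1 was called with 0.66, and Col14a1, with 0.53, was not.

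Type IV collagen, the network of basement membranes, had 4 chains tested and none called. Col4a1 and Col4a2, adjacent genes that encode the main type IV chains, had log2 fold changes of -0.27 (adjusted p = 0.623) and -0.17 (adjusted p = 0.795). The lowest Col4a1 level in the high group was 141.0 RPKM and the highest in the low group 502.5 RPKM. Col4a5 and Col4a6, adjacent genes on chromosome X, had larger negative differences. Col4a6 had the lowest value of all tested chains, -1.79 (adjusted p = 0.0926), with medians of 1.981 RPKM in the high and 14.80 RPKM in the low group, and no Col1a1-high tumor lay above the median of the low group. It was called without IGF1_135 (adjusted p = 0.0125). Col4a5 had -1.39 (adjusted p = 0.0755), with medians of 5.12 and 15.45 RPKM, and was called without IGF1_135, IGF1_145 or Untreated_194 (adjusted p from 0.00905 to 0.0442) and with the epithelial score as a covariate (adjusted p = 0.0444). Col18a1, which gives endostatin, had -0.64 and was not called. Col7a1, which forms anchoring fibrils below epithelia, was called higher, with a median of 156.8 RPKM in the high and 48.93 in the low group (1.78 ± 0.38, SE, adjusted p = 0.0109). Col26a1 was called with 2.61 ± 0.62 (SE, adjusted p = 0.0222), but its level varied over a wide range within the high group, from 0.736 RPKM to 121.5 RPKM in glargine_67, and it lost the call with insulin_13 kept (adjusted p = 0.0564).

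**Figure D2:**
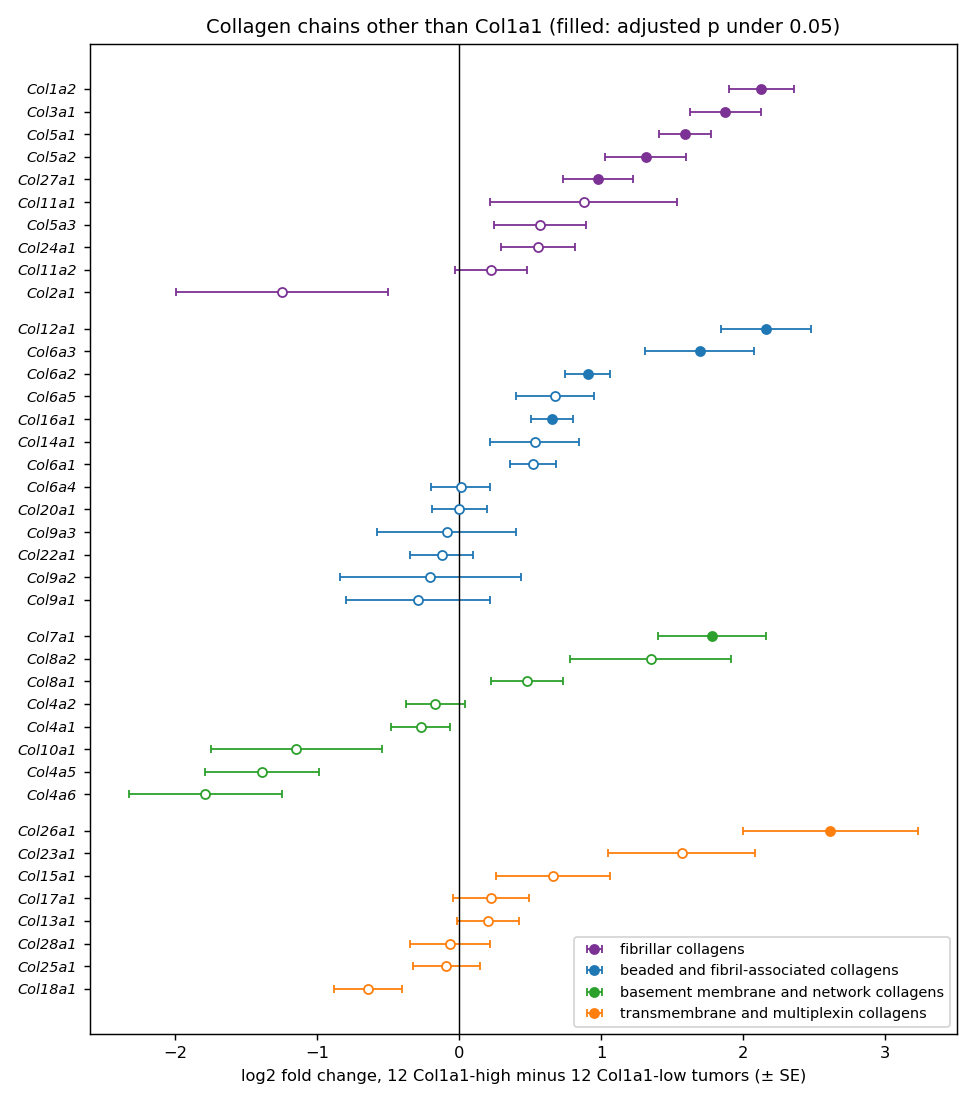
Log2 fold change ± SE of the 39 tested collagen chains other than Col1a1, 12 Col1a1-high minus 12 Col1a1-low tumors, on log2(RPKM + 0.5), in 4 structural classes by colour. Filled points are the 11 chains with an adjusted p under 0.05. Col1a2 (2.13), Col3a1 (1.87) and Col12a1 (2.16) lie to the right, Col4a1 (-0.27) and Col4a2 (-0.17) lie beside 0 and Col4a6 (-1.79) farthest to the left.

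The 250 bases before the transcription start are shown for Col3a1 and Col5a1, fibrillar chains that rose together, and for Lrrc15, the fibroblast gene whose level followed Col1a1 most closely. They are taken from RefSeq (GRCm38.p6) at chr1:45311288-45311537 (plus strand), chr2:27886175-27886424 (plus strand) and chr16:30283255-30283504 (minus strand), and end 1 base before the start. Capitals mark a TATAAA match on the printed strand.
Col3a1: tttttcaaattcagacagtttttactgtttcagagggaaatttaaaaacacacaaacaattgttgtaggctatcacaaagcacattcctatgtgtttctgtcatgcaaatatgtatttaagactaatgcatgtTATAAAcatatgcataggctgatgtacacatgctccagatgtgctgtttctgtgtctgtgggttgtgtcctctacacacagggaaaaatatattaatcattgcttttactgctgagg
Col5a1: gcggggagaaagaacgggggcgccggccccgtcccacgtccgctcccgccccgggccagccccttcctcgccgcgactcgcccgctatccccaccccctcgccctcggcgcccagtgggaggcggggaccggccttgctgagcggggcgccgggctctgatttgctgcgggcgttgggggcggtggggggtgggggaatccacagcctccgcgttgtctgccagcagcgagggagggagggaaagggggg
Lrrc15: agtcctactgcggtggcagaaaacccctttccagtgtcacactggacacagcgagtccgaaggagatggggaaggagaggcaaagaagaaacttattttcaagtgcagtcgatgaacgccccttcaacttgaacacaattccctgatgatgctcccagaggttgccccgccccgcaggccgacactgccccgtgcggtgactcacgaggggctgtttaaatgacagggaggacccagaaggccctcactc
The stretches differ in base composition, with a GC content of 35.2% for Col3a1, 76.4% for Col5a1 and 56.4% for Lrrc15. TATAAA and CCAAT, motifs that share no overlap, were searched on both strands of the same window in all 27025 RefSeq promoters. TATAAA was found in 13.0% of all promoters, in 6.9% of the 10404 promoters matched to tested genes and in 10.4% (19) of the promoters matched to genes called higher. CCAAT was found in 34.5%, 36.2% and 34.1% of the same sets.

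Enzymes and chaperones that modify and fold procollagen were partly higher as well. Called higher were 8 of 22 tested genes, none was called lower, and the median change over the list was 0.39 (log2). In the 25 tumors between the groups 7 of 22 had a positive slope on Col1a1 (median -0.096), against 55.2% of all genes. P4ha3, an α subunit of prolyl 4-hydroxylase, had a median of 16.59 RPKM (8.469 to 25.36) in the Col1a1-high and 5.895 RPKM (2.685 to 7.984) in the Col1a1-low tumors, without overlap (1.49 ± 0.18, SE, adjusted p = 1.91e-05). P4ha2, another α subunit, rose by 1.21 on the log2 scale (adjusted p = 0.00188). The α subunit P4ha1 was not called, with medians of 43.39 and 45.08 RPKM (-0.05, adjusted p = 0.953), nor was P4hb, the β subunit that is also a general disulfide isomerase (0.20, adjusted p = 0.431). Serpinh1 encodes the collagen chaperone Hsp47. It had a median of 344.7 RPKM (280.8 to 611.5) in the high and 216.5 RPKM (183.4 to 266.2) in the low group, again without overlap (0.75 ± 0.11, SE, adjusted p = 0.000333). With 16 tumors per group it was 0.48 and lost the call (adjusted p = 0.0864).

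The prolyl 3-hydroxylase family members Leprel2 and Lepre1 were called with 0.92 (adjusted p = 1.91e-05) and 0.64 (adjusted p = 0.00391). The prolyl isomerases Fkbp10 (1.49) and Fkbp14 (0.59) and Creb3l1 (0.88), a transcription factor of the secretory pathway, completed the called members. Leaving out 1 tumor ended the call of Fkbp10 for Untreated_162, Untreated_182, glargine_47, X10_118, IGF1_124 and insulin_37 (adjusted p 0.0504 to 0.0553). For Creb3l1 these were Untreated_162, Untreated_182, glargine_67, insulin_37 and IGF1_128 (adjusted p 0.0502 to 0.0553). The lysyl hydroxylase Plod1 (0.33) and the isomerase Ppib (0.42) were not called.

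Procollagen processing and cross-linking had 4 of 13 tested genes called higher and none lower, and a median change of 0.67 (log2). Adamts2, the procollagen N-proteinase, had a median of 220.0 RPKM in the high group, from 150.2 to 438.2. In the low group the median was 100.3 RPKM, from 46.91 to 146.1, so that the groups did not overlap (1.23 ± 0.17, SE, adjusted p = 0.000116). Bmp1, the C-proteinase, was called with 1.03 (adjusted p = 0.00132). Sparc, a collagen-binding matricellular protein, had a median of 3759 RPKM (2761 to 4344) against 1700 RPKM (1053 to 2140), with the highest abundance among the called genes of this list (1.18 ± 0.13, SE, adjusted p = 3.61e-06). Of the lysyl oxidases, Loxl1 was called (1.19, adjusted p = 0.00326), and Lox (1.08, adjusted p = 0.129), Loxl2 (0.91, adjusted p = 0.115), Loxl3 (0.67, adjusted p = 0.184) and Loxl4 (-0.31, adjusted p = 0.77) were not. Loxl2 was called with 8 tumors per group (1.46, adjusted p = 0.0368).

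Proteoglycans and matrix glycoproteins showed 10 of 43 tested genes called higher, none lower and a median of 0.63. The called members with the smallest adjusted p were the microfibril genes Mfap2 (2.17, adjusted p = 0.000305) and Mfap4 (2.39, adjusted p = 0.00139), Thbs2 (2.04, adjusted p = 0.00136), a thrombospondin, and Fbn2 (1.73, adjusted p = 0.00196), a fibrillin. Of the small leucine-rich proteoglycans in that list Lum, Bgn and Aspn (1.65, adjusted p = 0.0441) were called, and Fmod (1.22), Omd (0.60), Prelp (0.31), Ogn (-0.20) and Dcn were not. The call of Aspn was not followed through the alternative fits. Lum, which encodes lumican, had a median of 108.1 RPKM in the high and 29.52 RPKM in the low group (2.19 ± 0.42, SE, adjusted p = 0.00388). Dcn, which encodes decorin, had medians of 210.8 and 339.2 RPKM, with ranges of 106.6 to 596.9 in the high and 15.61 to 885.9 in the low group. Its log2 fold change of -0.24 ± 0.47 (SE, adjusted p = 0.884) was 0.05 with treatment as a covariate. Bgn, biglycan, was called with 1.86 ± 0.45 (SE, adjusted p = 0.0258), although its highest level among the 24 tumors, 3093 RPKM, was in the Col1a1-low tumor glargine_69.

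Of 25 tested fibroblast markers, 7 were called higher and none lower, 21 had a positive log2 fold change and the median was 0.97. Dcn, Lum, Mfap5 and Fbn1 are in this list and in that of the proteoglycans and glycoproteins. Lrrc15, a membrane protein known from matrix-producing fibroblasts of tumors, had a median of 70.41 RPKM in the Col1a1-high tumors, from 40.67 to 88.20. In the Col1a1-low tumors the median was 14.01 RPKM, from 1.938 to 34.91, without overlap (2.56 ± 0.34, SE, adjusted p = 7.70e-05). Dpep1 (1.31) and Mfap5 (1.65) were also called, Mfap5 not without Untreated_162 (adjusted p = 0.0532). The receptor Pdgfra, which marks fibroblasts broadly, had medians of 37.82 and 51.49 RPKM and a log2 fold change of -0.08 (adjusted p = 0.957). Its direction was not stable: the value lay above 0 in 4 of the fits that left out 1 tumor, by up to 0.03 without insulin_37. Pdgfrb (0.51, adjusted p = 0.342) and Fap (0.95, adjusted p = 0.169) were not called. The summed RPKM of the fibroblast markers ran from 1515 to 3066 in the high and from 595.2 to 2366 in the low group, so that the groups overlapped.

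Contractile genes of myofibroblasts and mural cells were called higher in 3 of 14 tested, 0 were called lower, and the median log2 fold change was 0.44. Acta2, smooth muscle actin, had a median of 117.7 RPKM (67.74 to 271.5) in the high and 34.55 RPKM (6.631 to 60.33) in the low group, with no overlap (1.95 ± 0.29, SE, adjusted p = 0.000333). Tagln, an actin-binding protein, had medians of 65.23 and 14.02 RPKM, and 11 of 12 high tumors exceeded every low tumor (2.53 ± 0.36, SE, adjusted p = 0.000197). Myl9, a myosin light chain, was called with 1.95 (adjusted p = 6.01e-05). The other 11 genes of the list were not called. Of these Actg2 had 1.36, Cnn1 1.30, Des 1.06, Myh11 0.62, Cspg4 0.25, Lmod1 0.09 and Mcam 0.06. Values below 0 were -0.0042 for Rgs5, -0.06 for Notch3, -0.13 for Kcnj8 and -0.36 for Abcc9.

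**Figure D3:**
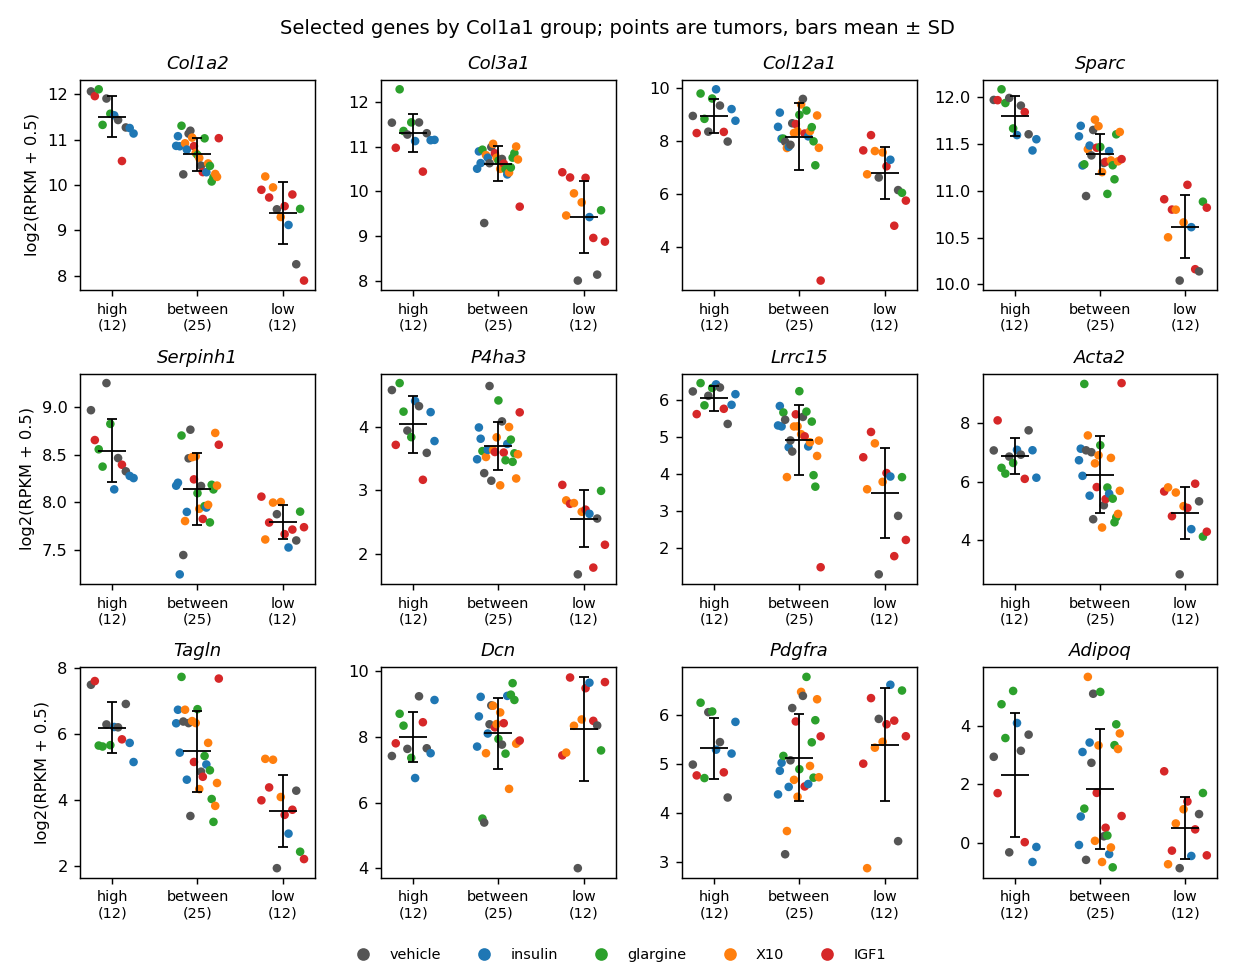
Log2(RPKM + 0.5) of 12 genes in the Col1a1-high (n = 12), in-between (n = 25) and Col1a1-low tumors (n = 12). Points are tumors coloured by treatment, and bars give mean ± SD. Col1a2, Col3a1, Sparc, Serpinh1, P4ha3, Lrrc15 and Acta2 do not overlap between high and low, Dcn (-0.24) and Pdgfra (-0.08) do, and Adipoq spreads over a wide range in the high group.

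Among proteases that cut collagen and matrix, and their inhibitors, 3 of 22 were called higher and none lower, and the median was 0.58. Mmp14, a membrane-bound collagenase, had medians of 261.5 and 173.0 RPKM (0.59 ± 0.10, SE, adjusted p = 0.00091). Mmp23 had 37.33 RPKM (20.38 to 52.76) against 9.086 RPKM (3.514 to 13.68), without overlap (1.95 ± 0.21, SE, adjusted p = 3.61e-06). Timp1, an inhibitor of these proteases, was called with 0.91 (adjusted p = 0.0417), a call lost in 16 of 24 fits leaving out 1 tumor (adjusted p 0.0545 without X10_95 to 0.0751 without Untreated_162). Mmp2, a gelatinase, had 1.01 on the same scale (adjusted p = 0.115), which became 1.23 without Untreated_161 (adjusted p = 0.00729). It was also called with all 49 tumors in the fit (adjusted p = 0.0467) and with Col1a1 as a continuous variable over them (adjusted p = 0.0273). Of 9 tested collagen receptors 1 was called, the integrin chain Itga11 (1.61 ± 0.29, SE, adjusted p = 0.0022).

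TGF-beta is a known inducer of collagen synthesis. None of 21 tested genes of its ligands, receptors and targets was called, where 1.87% of all genes were (313 of 16732), and the median was 0.12. The ligand Tgfb1 had medians of 193.0 RPKM in the high and 200.8 RPKM in the low group (0.0039 on the log2 scale, adjusted p = 0.996). Tgfb2 and Tgfb3 had log2 fold changes of 0.75 (adjusted p = 0.387) and 0.34 (adjusted p = 0.63). In the insulin and IGF axis, to which the treatments belong, 0 of 13 were called. Igf1 had a median of 53.52 RPKM in the high and 31.03 in the low group (1.15 ± 0.34, SE, adjusted p = 0.0831). It was called without IGF1_160 (adjusted p = 0.0484) and without glargine_69 (adjusted p = 0.0413), and also with all 49 tumors in the fit (adjusted p = 0.0327) and with Col1a1 as a continuous variable over them (adjusted p = 0.0183). The receptor Igf1r had -0.15 (adjusted p = 0.814). Cell cycle genes were not called (0 of 20, median -0.23, Mki67 -0.13), and 2 of 20 had a positive log2 fold change, against 45.6% of all genes. Hypoxia and glycolysis genes were not called either (0 of 17, median 0.09, 11 of 17 positive). Runx2, a bone transcription factor, had 0.16 and 0 of 12 bone and cartilage genes were called. In lists of 12 to 21 genes, 0 calls cannot be told from the 1.87% of all genes called.

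**Figure D4:**
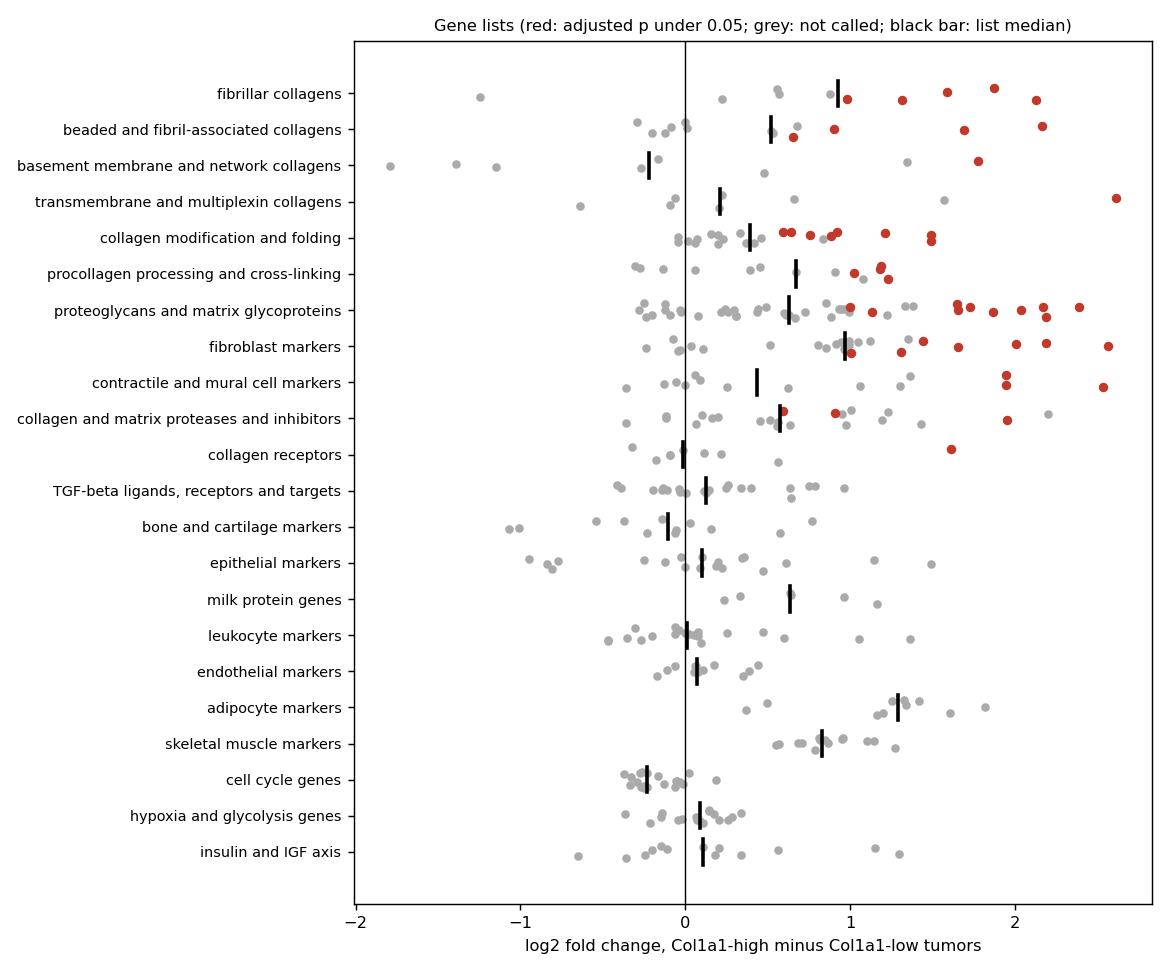
Log2 fold change of every tested member of the 22 gene lists, Col1a1-high minus Col1a1-low tumors. Red points have an adjusted p under 0.05 (45 of 343 genes, all higher), grey points do not, and black bars are list medians. Red points are found in the matrix, fibroblast, contractile, protease and receptor lists, and adipocyte markers have a median of 1.29 without a red point.

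Markers of other cell types were measured in the same tumors. Epithelial markers (0 of 19 called, median 0.10), leukocyte markers (0 of 20, median 0.01) and endothelial markers (0 of 12, median 0.07) had medians near that of all genes. Of the milk protein genes 0 of 6 were called (median 0.64). Cdh1 had -0.25 (adjusted p = 0.892) and Ptprc -0.20 (adjusted p = 0.797). The summed epithelial markers ranged from 26.9 to 3398 RPKM in the high and from 75.0 to 2344 RPKM in the low group, with overlap. Esrp1, Elf3, Ovol1 and Trp63 had a median under 0.5 RPKM in both groups.

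Adipocyte markers were high in part of the Col1a1-high tumors. None of 10 was called, all 10 had a positive log2 fold change and the median was 1.29. Over the 49 tumors Spearman's rho of their summed RPKM with Col1a1 was 0.29, and in the 25 tumors between the groups 3 of 10 had a positive slope on Col1a1 (median -0.27). Their summed RPKM ran from 34.9 to 416.8 in the high group and from 26.9 to 132.1 in the low group. In 7 of 12 Col1a1-high tumors the sum exceeded every Col1a1-low tumor. Adipoq, adiponectin, had medians of 7.75 and 0.989 RPKM (1.82, adjusted p = 0.169), and Plin1, perilipin, 1.785 and 0.13 RPKM (1.25, adjusted p = 0.113). Adding the adipocyte score as a covariate, a fit tried once these values were known, left 101 genes higher and 12 lower (0.675% of those tested), 108 of them among the 313. Of the 11 called collagen chains 6 lost their call in that fit, with log2 fold changes that kept their direction: Col7a1 with 1.8 (1.78 without the score), Col5a2 with 1.19 (1.31), Col16a1 with 0.61 (0.66), Col27a1 with 0.89 (0.98), Col6a3 with 1.45 (1.69) and Col26a1 with 2.27 (2.61). Col1a2, Col3a1, Col5a1, Col6a2 and Col12a1 kept it. Lum, Bgn, Dpep1, Mfap5, Timp1, Fkbp10, Fkbp14 and Creb3l1 lost theirs as well, with 7 of the lower genes named here, and the adjusted p of these lost calls ran from 0.0556 to 0.194. Their log2 fold changes kept their direction too, for example Fkbp10 with 1.68 (1.49 without the score), Lum with 1.95 (2.19), Dpep1 with 0.93 (1.31) and Eps8 with -0.96 (-0.93).

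Skeletal muscle genes were high in single tumors of both groups. Their sum reached 7900 RPKM in glargine_64 and 2716 RPKM in Untreated_197, both Col1a1-high, and 2494 RPKM in the Col1a1-low tumor IGF1_135. The group medians were 30.6 and 62.4 RPKM, and none of 14 was called (Acta1 0.87, adjusted p = 0.84). All 14 had a positive log2 fold change (median 0.83), and in the 25 tumors between the groups 13 of 14 had a positive slope on Col1a1 (median 2.29). With the muscle score as a covariate 273 genes were called. The covariate fits do not measure the part of adipocyte and muscle RNA in the differences, which was not tested.

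Outside the lists, the 8 protein-coding genes with the smallest adjusted p among those called higher included secreted and nuclear proteins. Gpx3, a secreted glutathione peroxidase, had a median of 390.8 RPKM (230.3 to 659.6) in the high and 108.8 RPKM (57.50 to 170.7) in the low group (1.88 ± 0.20, SE, adjusted p = 3.61e-06). Runx1t1, a transcriptional corepressor, had 1.397 against 0.321 RPKM and a log2 fold change of 1.23 (adjusted p = 3.61e-06). Tmem45a (1.86), the complement component C2 (2.21) and the secreted lectin Clec11a (1.96) were likewise separated without overlap. Tnn, tenascin N, had the largest difference among the named genes, with medians of 22.05 and 0.882 RPKM (3.44 ± 0.47, SE, adjusted p = 9.64e-05). The RNA-binding protein Msi1 (1.23) and the metalloprotease Adamts16 (1.93) completed the 8 genes.

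The genes lower in Col1a1-high tumors differed by less. Dusp6, a phosphatase of ERK kinases, had a median of 37.73 RPKM (19.39 to 65.27) in the high and 59.92 RPKM (42.88 to 87.75) in the low group (-0.71 ± 0.16, SE, adjusted p = 0.0157). Eps8, a substrate of the EGF receptor, had medians of 103.6 and 201.4 RPKM (-0.93 ± 0.21, SE, adjusted p = 0.0168). Dusp18 (-0.98), the scaffold gene Magi3 (-0.88), Ssx2ip (-0.76), Pttg1ip (-0.66), Rprd1a (-0.53) and the kinase Srpk2 (-0.47) made up the rest, and in each of the 8 the groups overlapped. Pttg1ip and Srpk2 lost their call with treatment as a covariate, as did Nr1h5, Kitl, Col5a2, Fkbp14 and Bgn (adjusted p 0.0516 to 0.0956). Their log2 fold changes in that fit were close to those without it, -0.63 for Pttg1ip, -0.50 for Srpk2, -1.71 for Nr1h5, -0.97 for Kitl, 1.15 for Col5a2, 0.59 for Fkbp14 and 1.82 for Bgn. The number of lower genes depended on single tumors. It fell from 44 to 23 without glargine_47, to 24 without insulin_37, to 27 without IGF1_124 and to 29 without IGF1_128, and was 74 without Untreated_161 and 73 without glargine_69.

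Single tumors of the low group differed in which matrix genes were low. In Untreated_161 both Dcn (15.61 RPKM) and Bgn (26.24 RPKM) were at their lowest among the 24 tumors, as were Lrrc15 (1.938 RPKM) and Col3a1 (256.4 RPKM). IGF1_128, with the lowest Col1a1, had 804.4 RPKM of Dcn, more than any Col1a1-high tumor. Col2a1 was 201.5 RPKM in Untreated_182 and 329.5 RPKM in glargine_69, while the highest level in the high group was 3.287 RPKM.

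The 25 tumors between the groups took no part in the comparison and were used to see whether the genes also follow Col1a1 within a narrower range, from 5577 to 11843 RPKM. No gene was called for its slope on Col1a1 (limma, 0%), with 908 genes at an unadjusted p under 0.05. Of the 269 genes called higher, 183 had a positive slope (68.0%, against 55.2% of all genes), and of the 44 called lower, 29 had a negative slope (65.9%). Col1a2 changed by 0.66 ± 0.19 on the log2 scale (SE, adjusted p = 0.83) per doubling of Col1a1, Lrrc15 by 1.37 ± 0.49 (adjusted p = 0.877) and Thbs2 by 1.14 ± 0.25 (adjusted p = 0.759). Serpinh1 (-0.20) and Col16a1 (-0.52) had slopes below 0 in these tumors, and Col3a1 one of 0.12.

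Over all 49 tumors, the genes whose level ranked most like Col1a1 were Col1a2 (Spearman's rho 0.92), Lrrc15 (0.83), Runx1t1 (0.83), Gpx3 (0.82), Sparc (0.82), Mfap2 (0.82), Adamts16 (0.81), Col3a1 (0.81), Mmp23 (0.80) and Col5a1 (0.78). These are descriptions over tumors that include the groups, and both genes of a pair come from the same library. Within treatments, with 9 or 10 tumors each, rho of Col1a2 with Col1a1 lay between 0.88 and 0.98, of Col3a1 between 0.76 and 0.89 and of Lrrc15 between 0.53 and 0.95. Serpinh1 varied more, from 0.04 in X10 to 0.85 in IGF1 tumors. Dcn ranged from -0.83 in insulin to 0.02 in X10 tumors, and Pdgfra from -0.60 to 0.15.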

How the data were processed

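RNA of 50 mammary gland tumors was poly-A selected and sequenced on the Ion Proton. The authors aligned reads to GRCm38 with TopHat2 2.0.10 and Bowtie2 and counted them per gene with HTSeq 0.6.1. The deposited RPKM values, for 37701 genes, are scaled to library size and gene length, and the study's methods name DEXSeq for its RPKM table. RPKM are not counts, so no count model was fitted. Library sizes were estimated from the spacing of low values. Symbols are those deposited, and positions and types are from GENCODE M21.

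Tumors were ranked by Col1a1 without insulin_13, and 12 against 12 were compared in limma 3.58.1 (R 4.3.3, intensity trend) on log2(RPKM + 0.5), without covariates. The slope on Col1a1 was fitted in the 25 remaining tumors, and the distribution of treatments was tested by permutation. Groups cut on Col1a1 are not randomized, and p-values cover the spread between tumors.

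The members and the 22 gene lists (362 genes) were chosen with earlier results of these data known. Genes to be named were any tested collagen chain or collagen-modifying or processing gene, in other lists the 4 called members with the smallest adjusted p in each direction and the first 3 members, outside the lists the 8 protein-coding genes with the smallest adjusted p in each direction, and the 10 genes most like Col1a1. Some genes are named outside this rule, among them Aspn, Fmod, Omd, Prelp, Ogn and the uncalled contractile and mural cell genes. Some genes that it covers, such as Mmp3 and Igf2, are not described. Observations on single tumors were chosen after values were seen. Alternatives were pseudocounts of 0.1 and 1, other filters and scalings, other group sizes, treatment or insulin_13 included, continuous Col1a1 and leaving out each tumor. Covariates for adipocyte, muscle and epithelial scores and library size were added after seeing the data.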

Additional observations from a re-analysis of the deposited data

How the results depend on the processing

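The number of called genes was 313 and ranged from 240 (without glargine_47) to 374 (without glargine_69) when 1 tumor was left out. It moved by over 1.5 times with 16 tumors per group (185) and with 8 per group (173), and from 1.87% to 0.675% of tested genes with the adipocyte score as a covariate. With genes of a mean of at least 5 RPKM fewer genes were tested, and 190 of 10903 were called, all of them among the 313. The other alternatives gave 265 to 461, and 0 genes were called in the tumors between the groups under any alternative run, with 479 to 2046 at an unadjusted p under 0.05. Treatments differed between the groups with 16 tumors per group (p = 0.0143), where p was 0.154 with 12 and 0.736 with 8. Of 57 called genes with a value in the text, which leave out Aspn, 15 lost the call with 16 per group (Col16a1, Col26a1, Lepre1, Serpinh1, Fkbp10, Fkbp14, Creb3l1, Bgn, Mfap5, Timp1, Dusp18, Magi3, Srpk2, Dusp6 and Nr1h5, adjusted p 0.0527 to 0.437), 17 with 8 per group, 21 with the adipocyte score and 7 with treatment as a covariate. Lost with 8 per group were Col5a2, Col27a1, Col16a1, Col26a1, Lepre1, Bgn, Dpep1, Mfap5, Timp1, Dusp18, Magi3, Srpk2, Ssx2ip, Rprd1a, Eps8, Nr1h5 and Kitl (adjusted p 0.0527 to 0.294). With all genes above 0 in the test 8 lost the call (Col26a1, Col27a1, Fkbp10, Creb3l1, Bgn, Mfap5, Timp1 and Nr1h5), with Col1a1 as a continuous variable 5 (Lepre1, Fkbp14, Timp1, Nr1h5 and Kitl), with library size as a covariate 4 (Fkbp10 at 1.38, Creb3l1 at 0.83, Timp1 at 0.89 and Nr1h5 at -1.48 on the log2 scale), with the skeletal muscle score 3 (Col27a1 at 0.98, Timp1 at 0.84 and Nr1h5 at -1.57) and with insulin_13 kept in the ranking 1 (Col26a1). Values that changed sign were Dcn with treatment as a covariate (0.05), Mki67 with 8 tumors per group (0.05), Acta1 with the skeletal muscle score (-0.36), and, with 1 tumor left out, Cdh1 (-0.54 to 0.02) and Pdgfra (-0.31 to 0.03). The causes were not tested. No paired analysis was possible because the groups share no replicate numbers. The deposited RPKM limit precision for low genes, whose counting error is not modelled.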
